A study of Homo sapiens with 17 samples.

Results

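PC3M cells, a human prostate cancer cell line, were depleted of JMJD6 with small interfering RNA (siJMJD6) and then given MG132, a proteasome inhibitor. Their transcripts were compared with those of cells that received a non-targeting siRNA (siNT) and the same drug. The comparison takes in each gene that reached 10 normalised counts or more in at least 2 of the 4 libraries, which 9086 of the 14085 listed genes did. Transfection lasted 72 h and the drug was given at 2.5 µM for 4 h, with 2 libraries per group. The fit also held 2 libraries of siNT cells given DMSO, the solvent, for 4 h, and 2 libraries of HSF1 knockout (KO) cells under MG132. HSF1 is the transcription factor that drives the heat shock response, and the labels do not say whether the 2 KO libraries are separate clones. No siRNA or transfection time is given for the KO cells, so their differences from siNT cells cannot be laid to HSF1 alone. A second experiment set siJMJD6 against siNT after 1 h at 42 °C and 2 h of recovery, with 3 libraries per group. Its fit also held 3 libraries of siNT cells without heat shock. The labels name siJMJD6 without a sequence and do not say whether it is a pool. Effects of siJMJD6 on other transcripts therefore cannot be told apart from loss of JMJD6. A knockdown without any stress is not among the libraries analysed here. What the knockdown does by itself and what it does only with the drug therefore cannot be told apart. The labels do not state that replicates were grown apart. The titles of the siRNA libraries under DMSO or MG132 share a replicate tag across groups, which the main fit did not use to pair libraries. The spread behind each p-value is that of the libraries and could be technical in origin.

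JMJD6 is an oxygenase of the Jumonji C family, which uses iron and 2-oxoglutarate. It hydroxylates lysines of splicing factors and has been reported to take part in the release of paused RNA polymerase II. When the proteasome is blocked, unfolded proteins build up and HSF1 turns on chaperone genes. Kinases of the integrated stress response also phosphorylate the initiation factor eIF2, which favours translation of the transcription factor ATF4 and thereby raises genes for amino acid supply.

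The libraries hold 1 tag per transcript near its 3' end, so levels of different genes need no correction for length. Column totals ran from 1578618 to 1819640 normalised counts in the 4 libraries, and the depth in reads is unknown. Across the 9086 genes, log2 levels of the 2 siNT libraries had a correlation of 0.932 and those of the 2 siJMJD6 libraries 0.917. Epithelial keratins were present in each library, with KRT18 between 725 and 1297 and KRT19 between 607 and 993 normalised counts. The summed level of the blood and immune list, of which 2 of 12 genes were in the table, lay between 28.9 and 32.2 in siNT and between 43.9 and 46.7 in siJMJD6. The androgen receptor-positive prostate list, of which 5 of 10 genes were in the table, summed to 130 and 194 in siNT and to 335 and 308 in siJMJD6, and KLK2 and KLK3 were not in the table. The epithelial list (9 of 11 genes) summed to 1619 and 2402 in siNT and to 2836 and 2526 in siJMJD6, and the mesenchymal list (14 of 14) to 1087 and 1006 against 736 and 966. In all 4 lists the groups did not overlap, as was so for 53.9% of the genes compared. The sums did not follow the single genes. Of 9 mesenchymal genes compared 2 rose and 1 fell, with a median log2 difference of 0.41. Of 3 prostate genes 1 rose (HOXB13), with a median of −0.34. None of 7 epithelial genes and 1 blood and immune gene was called. The sums are therefore not read as a shift in cell identity, and their part in the results was not tested.

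JMJD6 (chr17:76712832-76726799, minus strand) checks the labels. It read 167 and 130 normalised counts in siNT and 26.6 and 16.6 in siJMJD6, against 88.7 and 70.9 in DMSO. Both knockdown libraries thus lay below both DMSO libraries. The log2 difference, always siJMJD6 minus siNT on the scale of the normalised count plus 1, was −2.75 ± 0.32 (SE, n = 2 per group, adjusted p = 0.00031). After heat shock it was −4.31 ± 0.18 (n = 3 per group, adjusted p = 1.16e-19). Of 22 genes of the JmjC oxygenase list 2 fell (9.09%, against 7.84% of all genes compared). They were JMJD6 itself and PHF2, a histone demethylase, at −1.81 ± 0.46. PHF2 lost its call without siNT library 1 (adjusted p = 0.185) and without siJMJD6 library 2 (0.0662).

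At an adjusted p under 0.05, 712 genes fell and 607 rose, which is 7.84% and 6.68% of the genes compared and 14.5% in all. Among all 9778 fitted genes the shares were 7.35%, 6.22% and 13.6%. At least 2-fold changes made up 607 of the falls and 538 of the rises, and at least 4-fold changes 132 and 196. The 2 siJMJD6 libraries lay on 1 side of both siNT libraries for each of the 1319 called genes, as they did for 53.9% of all genes compared. Of the falls, 90 passed the minimum level through the siNT libraries alone, and of the rises 102 through the siJMJD6 libraries alone, so these had to differ. The counts changed when a library was left out, also an HSF1 KO library, which does not enter the difference. Without siNT library 1 they were 188 lower and 162 higher, without siNT library 2 299 and 408, without siJMJD6 library 1 530 and 337, and without either HSF1 KO library 455 and 407 or 459 and 404.

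**Figure D1:**
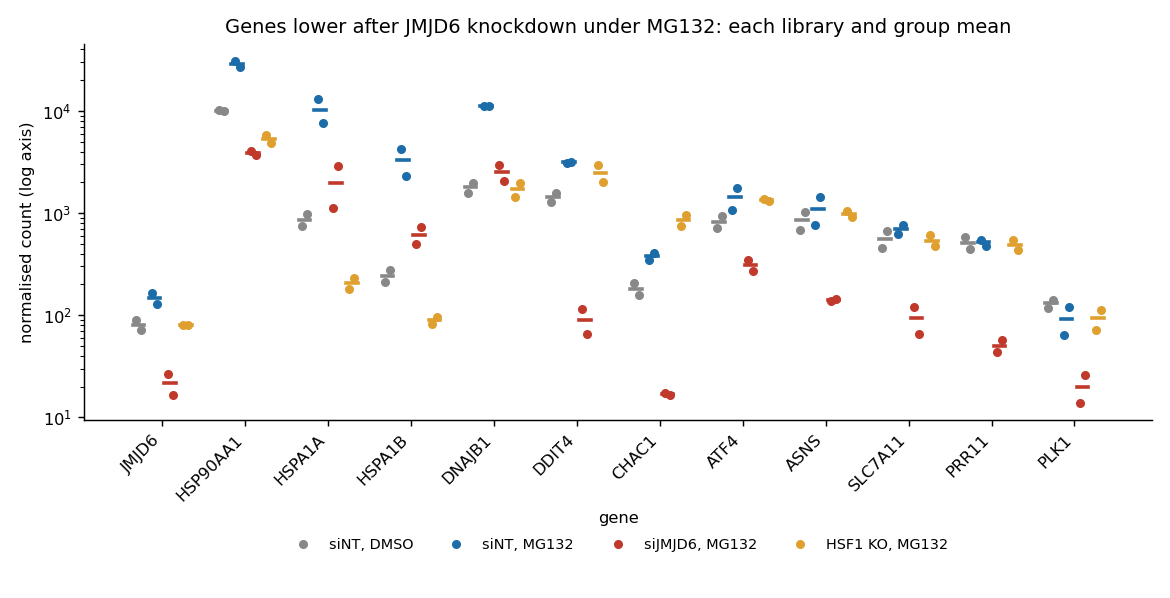
Normalised counts (log axis) of 12 genes that fell, in each of the 8 libraries, with points for libraries and bars for group means. In all 12 the 2 siJMJD6 libraries lie under both siNT libraries under MG132; in HSPA1A, HSPA1B and DNAJB1 they remain above both DMSO libraries.

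Targets of ATF4 and its partner CHOP held the deepest falls. Of 26 list members 17 fell (65.4%, against 7.84% of all genes compared). The median log2 difference was −1.71 over the list against −0.04 over all genes compared. None of the 26 rose, at an adjusted p or at an unadjusted p under 0.05 (0 genes with limma). DDIT4 (chr10:72273920-72276036, plus strand) encodes an inhibitor of the growth kinase mTORC1. It read 3085 and 3170 in siNT and 115 and 64.9 in siJMJD6, against 1290 and 1566 in DMSO. The groups were far apart, and the knockdown libraries also lay far below DMSO. The difference was −5.16 ± 0.29 (adjusted p = 7.73e-07). CHAC1 (chr15:40952962-40956519, plus strand), an enzyme that degrades glutathione, read 345 and 409 in siNT, 17.1 and 16.6 in siJMJD6 and 205 and 159 in DMSO. Its difference was −4.40 ± 0.26 (adjusted p = 9.34e-07). In the HSF1 KO libraries CHAC1 read 746 and 960, above all other libraries. The calls of DDIT4 and CHAC1 held without each of the 8 libraries in turn.

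ATF4 itself was lower at the transcript level, with 1072 and 1771 in siNT, 346 and 269 in siJMJD6 and 707 and 932 in DMSO (−2.17 ± 0.27, adjusted p = 0.00042). Of 23 regulators of the integrated stress response 7 fell and 0 rose (limma, also 0 at an unadjusted p under 0.05). The falls are 30.4% of the list, against 7.84% of all genes compared. TRIB3, a pseudokinase that restrains ATF4, read 136 and 448 in siNT and 30.9 and 35.2 in siJMJD6 (−2.87 ± 0.53, adjusted p = 0.00466). NUPR1, a small stress-induced chromatin protein, fell by 2.34 ± 0.30 on the log2 scale (adjusted p = 0.000532). PPP1R15A, the regulatory subunit that directs a phosphatase to eIF2, read 241 and 274 in siNT and 71.3 and 92.9 in siJMJD6, above the 51.5 and 35.7 of DMSO (−1.65 ± 0.28, adjusted p = 0.00298). ATF4, TRIB3 and NUPR1 lay below both DMSO libraries while PPP1R15A did not. Without siNT library 1, siNT library 2 or siJMJD6 library 1 the 7 falls became 4 in each case.

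Genes that make or import amino acids fell with them. Of 27 list members 18 fell and 1 rose, with a median of −1.36. The shares are 66.7% and 3.70%, against 7.84% and 6.68% of all genes compared. Most of these falls, such as ASNS, SLC7A11 and PSAT1, are also falls of the ATF4 and CHOP list, so the 2 lists are not separate results. ASNS, asparagine synthetase, read 759 and 1439 in siNT and 136 and 143 in siJMJD6, against 683 and 1024 in DMSO (−2.90 ± 0.30, adjusted p = 0.00013). The siNT libraries themselves lay apart, yet both stood above the knockdown. SLC7A11, the cystine importer, went from 620 and 762 to 121 and 64.9 (−2.94 ± 0.31, adjusted p = 0.000132). BCAT1, which transaminates branched-chain amino acids, went from 240 and 301 to 57.5 and 20.3 (−2.93 ± 0.39, adjusted p = 0.000553). PSAT1 of serine synthesis had −2.11 ± 0.27 and MTHFD2 of the mitochondrial folate cycle −1.91 ± 0.24 (adjusted p = 0.000452 and 0.000474). The falls of ASNS, SLC7A11, BCAT1, PSAT1 and MTHFD2 held without each library in turn. Among 20 aminoacyl-tRNA synthetases, which load amino acids onto tRNA, 9 fell and 0 rose (limma, also 0 unadjusted). The falls are 45% of that list. GARS, for glycine, went from 347 and 402 to 100 and 60.3 (−2.25 ± 0.27, adjusted p = 0.000351), and CARS, for cysteine, had −1.55 ± 0.27 (adjusted p = 0.00337). The 9 synthetases became 5 without siNT library 1 and 2 without siNT library 2.

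ATF4 binds a composite element, CARE, searched here as TGATG, any base, AA and any base, on both strands in the 250 bases before each RefSeq start. The 8 listed genes of amino acid supply and stress that fell and hold a match are shown with their site (capitals), because they let the element be read beside the falls. Sequences are from RefSeq (GRCh38.p14), on the strand of the gene. A match on the other strand reads as its reverse complement.
CHAC1 (chr15:40953251-40953279): ctcccctgccGTTGCATCActcctgccag
BCAT1 (chr12:24949131-24949159): gtcttcctgcTGATGCAATccgctaggtc
ASNS (chr7:97872458-97872486): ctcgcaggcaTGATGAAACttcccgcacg
MTHFD1L (chr6:150866347-150866375): ccgccggctcTGATGCAATcgcgccgggc
HERPUD1 (chr16:56931955-56931983): gacgcggcggGTTGCATCAgcccgtgccc
AARS (chr16:70289676-70289704): ttttctcgcaGTTGCATCAgccaagttag
SLC1A5 (chr19:46784893-46784921): aggaagtggcTGATGCAAGctgtccaggg
GOT1 (chr10:99430805-99430833): aattgcattgGTTGCATCAttctcggcag
Among all RefSeq promoters 3.13% hold such a match, and among the genes compared with a promoter 15 of 577 falls, 10 of 492 rises and 174 of 7557 in all (2.30%). A gene counts if any of its promoters holds a match. The share of all RefSeq promoters is over single promoters, here and for the elements below, so the units differ. CHAC1, BCAT1, ASNS, MTHFD1L, SLC1A5 and GOT1 carry it inside an annotated exon in GENCODE 29, and HERPUD1 and AARS outside the annotated gene. MTHFD1L, AARS, SLC1A5 and GOT1 were named after their values were seen. Other listed genes hold a match and were not called. Among them, also named after their values were seen, are JDP2 (log2 difference −2.33), CEBPG (−1.24), PPP1R15B (−0.46), IARS (−0.40) and ATF3 (0.47). The shares within the ATF4 and amino acid lists are not given, because fewer than 80% of their genes matched a promoter (19 of 26 and 21 of 27).

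Chaperone genes fell in part. HSP90AA1 (chr14:102080738-102139699, minus strand), the stress-inducible cytosolic HSP90, read 30731 and 26706 in siNT and 4040 and 3662 in siJMJD6, against 10212 and 9900 in DMSO. The knockdown libraries were thus lower than unstressed cells, and lower than the 5819 and 4848 of HSF1 KO. The difference was −2.90 ± 0.23 (adjusted p = 1.66e-05). Its constitutive partner HSP90AB1 had −1.11 ± 0.22 (adjusted p = 0.00675), a call lost without siNT library 1 (0.0589). The cochaperone PTGES3 (p23) was the remaining fall among 16 members of the HSP90 list, whose median was 0.02. The falls are 18.8% of the list, against 7.84% of all genes compared. Without siNT library 1 the 3 falls became 1.

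Among 8 members of the HSP70 and HSP110 list 3 fell (37.5%, against 7.84% of all genes compared). HSPA1A read 12973 and 7553 in siNT and 1116 and 2860 in siJMJD6, against 746 and 980 in DMSO and 181 and 229 in HSF1 KO. The knockdown libraries lay between the stressed and unstressed cells (−2.47 ± 0.38, adjusted p = 0.00147). HSPA1B, a near-identical copy whose reads cannot be assigned with certainty, behaved likewise at −2.38 ± 0.30. HSPA8, the constitutive HSP70, read 710 and 464 in siNT and 123 and 269 in siJMJD6 (−1.65 ± 0.34, adjusted p = 0.00848), and lost its call without siNT library 1 (0.0948). Of 14 HSP40 cochaperones, which pass clients to HSP70, 5 fell (35.7%). DNAJB1 went from 11245 and 11140 to 2926 and 2081 (−2.18 ± 0.25, adjusted p = 0.000278), and DNAJB6 from 365 and 638 to 166 and 173 (−1.50 ± 0.31, adjusted p = 0.00857). DNAJB6 lost its call without siNT library 2 (0.0771). The 5 falls became 3 without siNT library 1 or siJMJD6 library 1, and 1 without siNT library 2. BAG3, which links HSP70 to autophagy, went from 1630 and 763 to 111 and 253 (−2.73 ± 0.43, adjusted p = 0.00181). It was the only call among 11 exchange factors and small heat shock proteins. This fall is 9.09% of that list, near the 7.84% of all genes compared. Folding factors of the endoplasmic reticulum gave 1 fall among 22, HERPUD1, a part of the degradation machinery there, from 588 and 463 to 86.2 and 160 (−2.14 ± 0.29, adjusted p = 0.000655). That is 4.55% of the list, against 7.84% of all genes compared. Proteasome subunits gave 1 fall, PSMB5, and 1 rise, PSME4, among 35 (2.86% each, against 7.84% and 6.68%). PSMB5 kept its call in 3 and PSME4 in 1 of the 8 fits that left out a library, with adjusted p up to 0.134 and 0.15, and the number of falls ran from 0 (without either siNT or either HSF1 KO library) to 2 without siJMJD6 library 1 and 3 without siJMJD6 library 2.

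HSF1 binds the heat shock element, alternating GAA and TTC blocks, searched as GAA, TTC and GAA or TTC, GAA and TTC with 2 bases of any kind between the blocks, on both strands. Of 67 chaperone genes with a promoter (79 on the lists) 6 held a match, and of the 17 of these that fell 5 did, against 0.441% of all RefSeq promoters and 0.410% of the genes compared. Over all genes with a promoter, 6 of 577 falls (1.04%) and 2 of 492 rises (0.407%) held one. HSPA1A, HSPA1B, DNAJB1 and BAG3 were not among the genes with a match. The matches of the 5 chaperone genes that fell are shown so that the element can be read beside their falls.
HSP90AA1 (chr14:102087112-102087140): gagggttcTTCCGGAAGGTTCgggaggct
HSPA8, distal (chr11:123062346-123062374): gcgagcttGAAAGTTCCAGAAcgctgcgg
HSPA8, proximal (chr11:123062171-123062199): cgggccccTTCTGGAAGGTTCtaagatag
HSP90AB1, distal (chr6:44247770-44247798): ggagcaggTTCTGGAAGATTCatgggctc
HSP90AB1, proximal (chr6:44247823-44247851): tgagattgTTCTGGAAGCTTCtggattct
DNAJB6 (chr7:157336865-157336893): agagccgaGAACCTTCGCGAAggtggggc
HSPD1 (chr2:197500062-197500090): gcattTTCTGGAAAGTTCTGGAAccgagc
The sites of DNAJB6 and HSP90AB1 lie in an annotated intron and those of HSP90AA1, HSPA8 and HSPD1 in an annotated exon. HSPD1, the mitochondrial chaperonin, had the smallest of these falls (−0.73 ± 0.22, adjusted p = 0.0425). Its call was kept in only 1 of the 8 fits that left out a library, with adjusted p up to 0.245.

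Genes of cell division were lower. Of 33 mitotic genes 22 fell (66.7%, against 7.84% of all genes compared). All 33 had a negative difference, and the median was −1.25. None rose (limma, also 0 unadjusted). In bulk RNA, fewer dividing cells and less RNA per dividing cell cannot be told apart. PRR11 (chr17:59155499-59204705, plus strand), a proline-rich protein of mitotic progression, read 549 and 481 in siNT and 43.7 and 56.6 in siJMJD6, against 586 and 441 in DMSO. The siNT libraries under MG132 overlapped DMSO, and the knockdown difference was −3.34 ± 0.26 (adjusted p = 1.47e-05). PRC1, which bundles microtubules of the spindle midzone, went from 91.6 and 114 to 20.3 and 17.6 (−2.37 ± 0.30, adjusted p = 0.000452). The mitotic kinases PLK1 and AURKA went from 63.9 and 121 to 13.9 and 25.9 (−2.15 ± 0.40) and from 219 and 279 to 60.7 and 77 (−1.84 ± 0.26). These 4 calls held without each library in turn. The count did not, since 22 became 6 without siNT library 1, 11 without siNT library 2 and 7 without siJMJD6 library 1. Of 28 genes of DNA replication 14 fell and 0 rose, with 1 higher at an unadjusted p under 0.05 (limma). The falls are 50% of that list. UNG, which removes uracil from DNA, went from 266 and 286 to 60.7 and 89.1 (−1.89 ± 0.27), and LIG1, the replicative ligase, from 96.8 and 104 to 29.8 and 25 (−1.84 ± 0.29). The 14 became 2 without siNT library 1, 8 without siNT library 2 and 7 without siJMJD6 library 1.

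The CHR element of mitotic promoters, searched as TTTGAA on both strands, and CCAAT, the site of NF-Y, were counted in the same windows. CHR was found in 15 of 27 mitotic promoters (55.6%; 33 on the list) against 11.8% of the genes compared and 13.3% of all RefSeq promoters. CCAAT was found in 24 of 27 (88.9%) against 42.1% and 32.0%. Among falls as a whole CCAAT was found in 47.5% and among rises in 41.5%, while CHR stood at 13.5% and 11.8%. Among the mitotic genes that fell CHR was found in 10 of 19 promoters (52.6%), so it was no more frequent there than over the list. The sites of 3 of the mitotic genes named above are shown to place the element close to the start. No site was found for AURKA.
PRR11 (chr17:59155723-59155745): caaggatttaatTTTGAAttttt
PRC1 (chr15:90994538-90994567): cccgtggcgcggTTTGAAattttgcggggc
PLK1 (chr16:23678848-23678877): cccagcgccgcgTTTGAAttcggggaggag
They end 6, 15 and 24 bases before the start.

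The list of CDK inhibitors, GADD45 and p53 targets held both rises and falls. CDKN2B, which blocks the D-type cyclin kinases, read 35.1 and 46.3 in siNT, 139 and 114 in siJMJD6 and 90.2 and 90.1 in DMSO (1.62 ± 0.30, adjusted p = 0.00456). Under MG132 alone it was below DMSO, and with the knockdown above. CCND1, cyclin D1, rose from 447 and 632 to 1305 and 1097 (1.17 ± 0.24, adjusted p = 0.00758) and lost its call without siNT library 1 (0.0892). SESN2, a stress-induced sestrin also driven by ATF4, went from 602 and 708 to 267 and 150 (−1.70 ± 0.28, adjusted p = 0.00256). Of the 20 genes on the list 5 rose and 3 fell (25% and 15%, against 6.68% and 7.84% of all genes compared). The rises became 2 without siNT library 1 or siJMJD6 library 1 and 3 without either HSF1 KO library, and the falls became 1 without siNT library 1 or siJMJD6 library 1. Besides those named, CCND3, CDKN1A and TP53I3 rose and RRM2B and BBC3 fell, of which all but RRM2B are named after their values were seen.

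**Figure D2:**
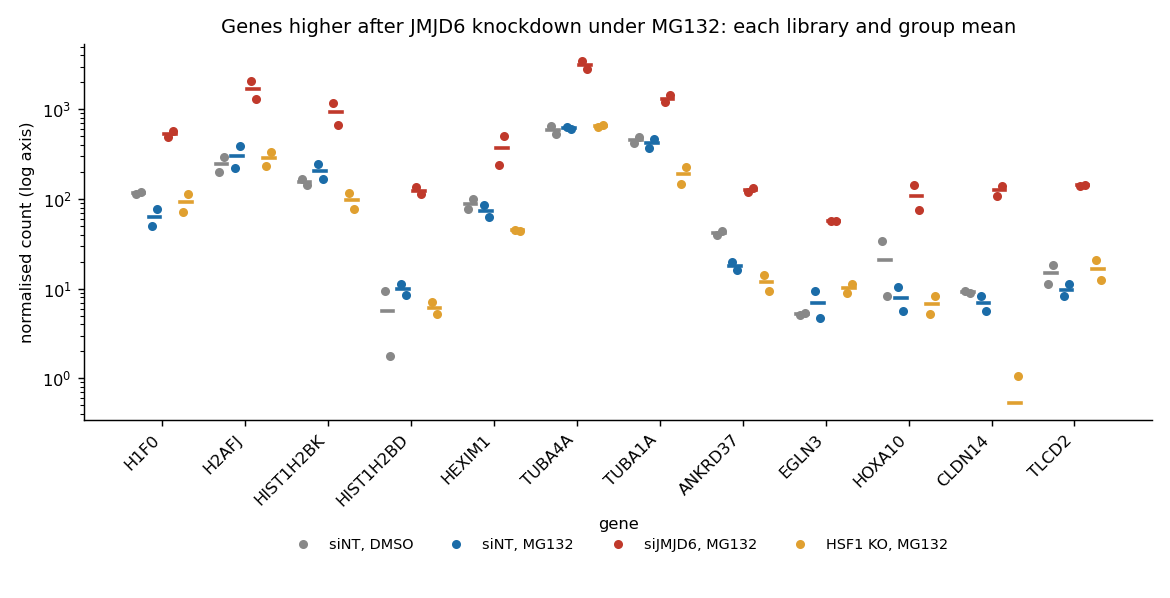
Normalised counts (log axis) of 12 genes that rose, in each of the 8 libraries, with points for libraries and bars for group means. In all 12 the siJMJD6 libraries lie above every siNT library, both under MG132 and in DMSO; the HSF1 KO library of CLDN14 listed at 0 has no point on the log axis.

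Histone genes led the rises. Of 14 list members 7 rose and 2 fell, with a median of 1.68. The shares are 50% and 14.3%, against 6.68% and 7.84% of all genes compared. H1F0, the linker histone of resting cells, read 50.5 and 76.5 in siNT and 486 and 575 in siJMJD6, against 115 and 120 in DMSO (3.07 ± 0.30, adjusted p = 8.91e-05). H2AFJ, an H2A variant, went from 221 and 389 to 2074 and 1306 (2.48 ± 0.33, adjusted p = 0.000596). HIST1H2BK went from 243 and 168 to 1190 and 677 (2.14 ± 0.32, adjusted p = 0.00132) and HIST1H2BD from 11.4 and 8.43 to 135 and 112 (3.52 ± 0.60, adjusted p = 0.00298). The reads of the clustered histone genes may be split among near-identical copies. HIST1H4C moved the other way, from 607 and 516 to 74.5 and 107 (−2.64 ± 0.36, adjusted p = 0.000727), together with the replacement histone gene H3F3B (−1.23), named after its value was seen. Most replication-dependent histone messages carry no poly(A) tail, and the library kit primes on such tails, so levels here are those of tailed transcripts. The calls of H1F0, H2AFJ, HIST1H2BK, HIST1H2BD and HIST1H4C held without each library in turn.

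Tubulin isotypes parted. TUBA4A (chr2:219249711-219278170, minus strand), an alpha-tubulin of differentiated cells, rose from 641 and 604 to 3455 and 2792 (2.32 ± 0.22, adjusted p = 8.91e-05), while DMSO cells read 658 and 527. TUBA1A rose from 371 and 464 to 1204 and 1436 (1.66 ± 0.26, adjusted p = 0.00181) and the beta-tubulin TUBB3 from 66 and 86 to 196 and 229 (1.48 ± 0.28, adjusted p = 0.00559). TUBA1B, an alpha-tubulin with a high level in these cells, fell from 12732 and 12991 to 4083 and 4641 (−1.56 ± 0.23, adjusted p = 0.00123). The tubulins are close paralogs, and their reads may be split between them. Of 34 genes on the cytoskeleton list 6 rose and 4 fell (17.6% and 11.8%, against 6.68% and 7.84% of all genes compared). The rises became 2 without siNT library 1, where TUBB3 was lost (0.0589), and the falls became 2 without siNT library 1 or either HSF1 KO library and 1 without siNT library 2.

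The 12 largest rises held genes of several families. PSKH1, a serine kinase, read 2.1 and 14.1 in siNT and 236 and 114 in siJMJD6 (4.59 ± 0.62, adjusted p = 0.000655). TLCD2, a membrane protein, went from 8.28 and 11.3 to 140 and 145 (3.75 ± 0.43, adjusted p = 0.000274). CLDN14, a claudin of tight junctions, read 8.28 and 5.6 in siNT and 108 and 141 in siJMJD6. It passed the minimum level through the siJMJD6 libraries alone, as did SNAR-H, DIO3 and HIST1H2AE, so these 4 had to differ. ARRDC3, an arrestin-domain adaptor, read 0.0356 and 12.2 in siNT and 60.6 and 137 in siJMJD6 (4.64 ± 0.86, adjusted p = 0.00483). In the HOXA cluster HOXA10, a homeobox factor, went from 10.3 and 5.6 to 143 and 75.2 (3.60 ± 0.62, adjusted p = 0.00309) and HOXA11-AS from 37.1 and 11.3 to 578 and 216 (4.03 ± 0.54, adjusted p = 0.000606). HOXA11-AS runs antisense to HOXA11, and reads of such partners cannot be told apart where the counting did not use strand, which is not stated. The short noncoding SNAR-G1 and SNAR-H, near-identical copies counted with uncertainty, had log2 differences of 4.86 and 4.74. DIO3, HIST1H2AE and EPHB3 lost their calls in 2, 2 and 5 of the 8 fits that left out a library, with adjusted p up to 0.151, 0.0775 and 0.34. Of the 12 largest falls, those not yet described are ITPK1, an inositol phosphate kinase (95.8 and 152 in siNT, 16 and 8.26 in siJMJD6, −3.28 ± 0.36), COL1A2, a collagen chain (244 and 100 against 17.1 and 20.3), FUBP1, a single-strand DNA-binding regulator of MYC (250 and 176 against 27.7 and 26.8, −2.90 ± 0.28) and RNU5F-1, a U5 small nuclear RNA gene with similar copies (−3.92 ± 0.44). Their adjusted p ran from 8.91e-05 to 0.00053, and they held without each library in turn.

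Genes for the factors JMJD6 is known to act with were read next. HEXIM1, which holds the elongation kinase P-TEFb inactive, rose from 85.5 and 63.3 to 240 and 501 (2.22 ± 0.35, adjusted p = 0.00178). Its call held without each library in turn. Of 21 genes on the list of partners and pause release 3 fell, among them NELFA and HSF2, the last named after its value was seen, and 2 rose (HEXIM1 and SUPT4H1). The shares were 14.3% and 9.52%, against 7.84% and 6.68% of all genes compared. The falls became 1 without siNT library 1, siNT library 2 or siJMJD6 library 1 and 5 without siJMJD6 library 2. Of 40 splicing regulators 11 fell and 0 rose (limma, also 0 unadjusted), with a median of −0.52. The falls are 27.5% of that list, against 7.84% of all genes compared. HNRNPA1 went from 696 and 544 to 172 and 187 (−1.77 ± 0.23, adjusted p = 0.000511), the cold-inducible RBM3 from 304 and 475 to 57.5 and 76.1 (−2.50 ± 0.30, adjusted p = 0.000326), and TRA2B, a splicing activator, from 213 and 183 to 45.8 and 73.3 (−1.75 ± 0.28, adjusted p = 0.00216). The 11 fell to 3 without siNT library 1, 5 without siNT library 2, 7 without siJMJD6 library 1 and 6 without any 1 of the DMSO or HSF1 KO libraries. Among 40 genes of the core spliceosome 3 fell (SNRPA, SF3A1 and EFTUD2) and 1 rose (SF3B5). These shares, 7.5% and 2.5%, did not exceed the 7.84% and 6.68% of all genes compared. The falls became 1 without siNT library 1, siNT library 2 or siJMJD6 library 2, and SF3B5 kept its call in 1 of the 8 fits, the one without siJMJD6 library 2, with adjusted p up to 0.267 in the others. Of 14 genes on a list of long noncoding RNAs 6 fell (42.9%), with a median of −0.69. They were NEAT1, MALAT1, GAS5, SNHG1, SNHG6 and SNHG8, and SNHG6 and SNHG8 were named after their values were seen. NEAT1, the scaffold of paraspeckles, read 1418 and 1549 in siNT and 361 and 343 in siJMJD6, against 810 and 822 in DMSO and 388 and 299 in HSF1 KO (−2.07 ± 0.22, adjusted p = 0.000155). MALAT1 went from 8911 and 9759 to 3814 and 3680 (−1.32 ± 0.23, adjusted p = 0.00351). The 6 became 3 without siNT library 1.

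Cytosolic ribosomal proteins did not pass the test. Of 46 large and 33 small subunit genes 0 were called with limma (2 and 3 at an unadjusted p under 0.05), with medians of −0.02 and −0.04. RPL39 came nearest at 0.65 ± 0.23 (adjusted p = 0.0806). Of 63 nuclear-encoded respiratory chain genes 4 fell and 2 rose, and the median was 0.12. These shares, 6.35% and 3.17%, did not exceed the 7.84% and 6.68% of all genes compared. ATP5G1, a ring subunit of ATP synthase, stood out with 1468 and 1605 in siNT and 419 and 216 in siJMJD6 (−2.35 ± 0.29, adjusted p = 0.000367), and after heat shock it had −3.18 ± 0.09. The remaining called respiratory genes lay between −1.02 and 1.12. Without siNT library 1 the 4 falls became 1, and 2 without siNT library 2, either DMSO library or HSF1 KO library 1.

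Sterol and oxygen-sensing genes were mixed. Of 25 sterol genes 7 fell and 2 rose (28% and 8%, against 7.84% and 6.68% of all genes compared). INSIG1, which retains the sterol regulator SREBP, went from 205 and 105 to 26.7 and 42.7 (−2.09 ± 0.39, adjusted p = 0.00473), and SCD, the stearoyl desaturase, from 1139 and 937 to 384 and 272 (−1.67 ± 0.26, adjusted p = 0.00147). INSIG1 lost its call without siNT library 1 (0.0628), where the 7 falls became 2. Of 18 hypoxia genes 3 rose and 4 fell (16.7% and 22.2%, against 6.68% and 7.84% of all genes compared). ANKRD37 rose from 19.6 and 16 to 119 and 131 (2.75 ± 0.37, adjusted p = 0.000627). EGLN3, a prolyl hydroxylase that marks HIF for degradation, read 9.31 and 4.66 in siNT and 57.2 and 56.9 in siJMJD6, and passed the minimum level through the siJMJD6 libraries alone, so it had to differ. The third, ADM, a vasodilator peptide, had 1.56 ± 0.35 and lost its call without siNT library 1 (0.123) and siJMJD6 library 1 (0.0566). BNIP3, HIF1A, PDK1 and VEGFA fell, the last 3 named after their values were seen, and none of the 4 falls was left without siNT library 1, 1 without siNT library 2 and 2 without siJMJD6 library 1.

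A few interferon-response genes rose. Of 20 interferon-response genes 4 rose and 0 fell, with 1 lower at an unadjusted p under 0.05 (limma). The rises are 20% of the list, against 6.68% of all genes compared. IFI6 went from 21.7 and 15.1 to 143 and 75.3 (2.46 ± 0.47, adjusted p = 0.00568), ISG15, a ubiquitin-like modifier, from 180 and 226 to 691 and 428 (1.43 ± 0.27, adjusted p = 0.00489), and B2M, the light chain of MHC class I, from 2291 and 2930 to 5737 and 5684 (1.14 ± 0.25, adjusted p = 0.012). The fourth was OAS1, a sensor of double-stranded RNA, which passed the minimum level through the siJMJD6 libraries alone and so had to differ. The 4 became 1 without siNT library 1, where ISG15 (0.0563) and B2M (0.118) were lost. Of 27 genes of autophagy and lysosomes 7 rose and 1 fell (25.9% and 3.70%, against 6.68% and 7.84%), with a median of 0.64. The number of rises did not hold with single libraries left out, so no member is given as a rise. Next to JMJD6 on 17q25, MXRA7 read 17.5 and 16 in siNT and 83.8 and 56.8 in siJMJD6 (1.98 ± 0.38, adjusted p = 0.00549). METTL23, which starts head to head with JMJD6 (chr17:76726830-76733936, plus strand), read 15.5 and 30.2 against 79.6 and 60.5 (1.63 ± 0.39, adjusted p = 0.017). Its call was lost without siNT library 1 (0.139) and siJMJD6 library 1 (0.0759), and 8 neighbours were compared.

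**Figure D3:**
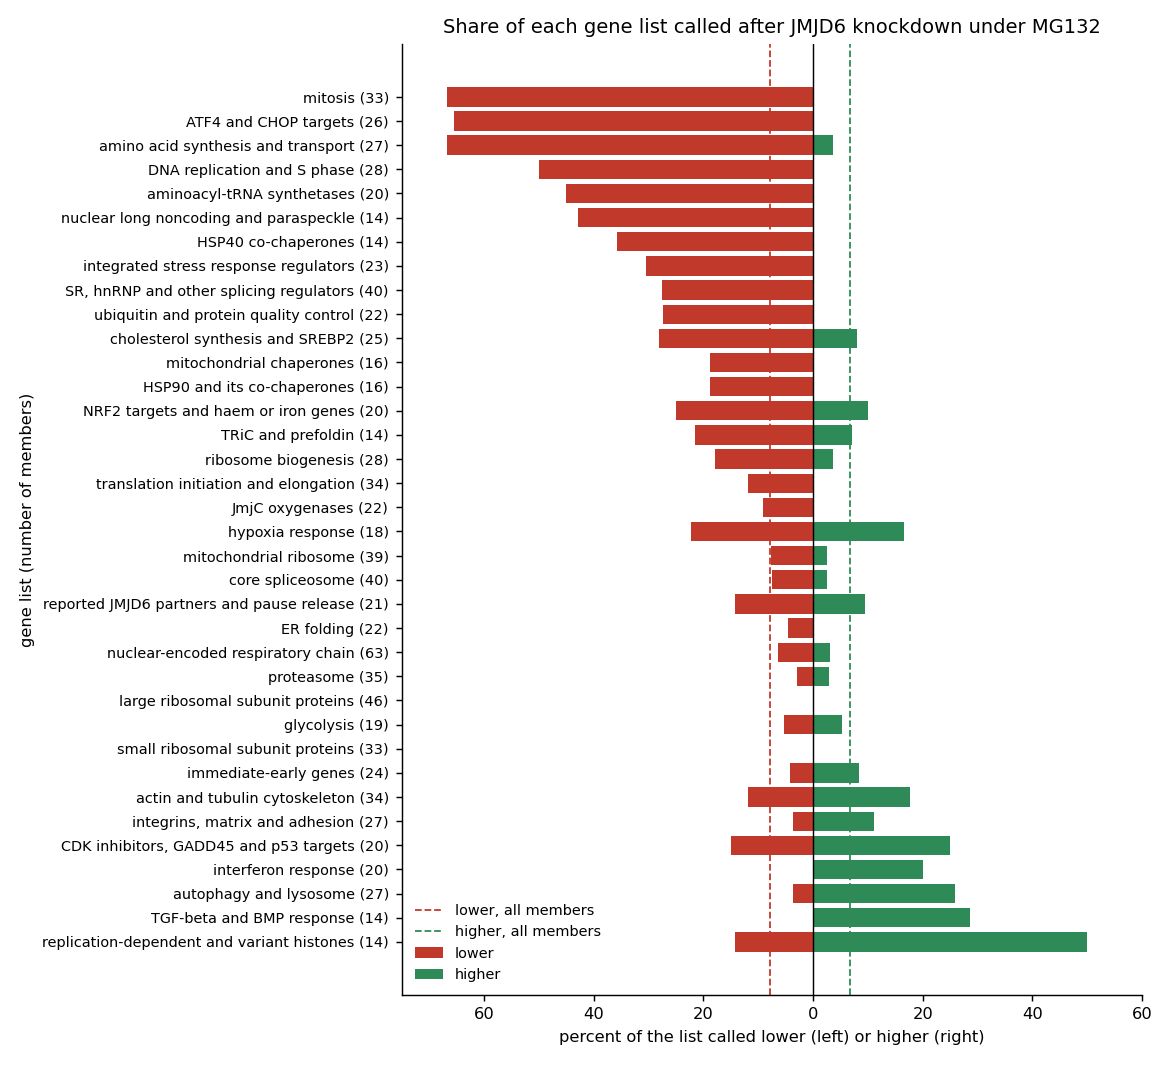
Share of each gene list called lower (left) or higher (right) in siJMJD6 against siNT under MG132, for the lists with 14 or more genes compared; dashed lines give the shares over all 9086 genes (7.84% and 6.68%). Mitosis, ATF4 and CHOP targets and amino acid genes extend farthest to the left, and histones farthest to the right. The ATF4 and amino acid lists share most of their falls.

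Most called genes ended outside the range of unstressed cells. Of the 712 falls 679 (95.4%) had both siJMJD6 libraries below both DMSO libraries, and of the 607 rises 586 (96.5%) had both above. The same held for 29.4% and 28.5% of all genes compared. Only 9 falls stayed above DMSO, among them HSPA1A, HSPA1B, DNAJB1, PPP1R15A and ZFAND2A. ZFAND2A, a stress-induced partner of the proteasome, read 56.8 and 45.8 in DMSO, 491 and 398 in siNT under MG132 and 238 and 111 in siJMJD6 (−1.44 ± 0.33, adjusted p = 0.0149). Its call was lost without siNT library 1 (0.114) and siJMJD6 library 2 (0.0626). The DMSO cells carried siNT, so these positions do not separate the knockdown from the drug.

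After heat shock, in libraries that share none with the MG132 experiment, the knockdown called 2450 of 9831 genes lower (24.9%) and 2107 higher (21.4%). The 2 experiments differ in the number of libraries and were scaled apart, so levels are not compared between them, and the shares called depend on the size of each experiment. Of the 704 falls under MG132 that were fitted there 571 (81.1%) were also called lower and 6 higher. Of the 580 rises 488 (84.1%) were also called higher and 7 lower. Seen from the heat shock side, 571 of its 2280 falls and 488 of its 1956 rises among the genes compared were called the same way under MG132. Over 8859 genes the log2 differences had a Pearson correlation of 0.712 and a Spearman correlation of 0.668, which describes genes, not replicates. Among the MG132 calls the median difference was −1.41 under MG132 and −0.91 after heat shock for falls, and 1.55 and 0.90 for rises. DDIT4 had −5.16 ± 0.29 under MG132 and −1.97 ± 0.11 after heat shock, and HSP90AA1 −2.90 ± 0.23 and −2.41 ± 0.07. HSP90AA1 read 22185, 20544 and 19998 in siNT after heat shock and 4160, 3725 and 3932 in siJMJD6. HSPA1A, by contrast, had −2.47 ± 0.38 under MG132 and 0.21 ± 0.08 after heat shock, a call in the opposite direction (adjusted p = 0.0419), where siNT read 1408, 1662 and 1690, siJMJD6 1595, 1981 and 1920, and the groups overlapped.

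**Figure D4:**
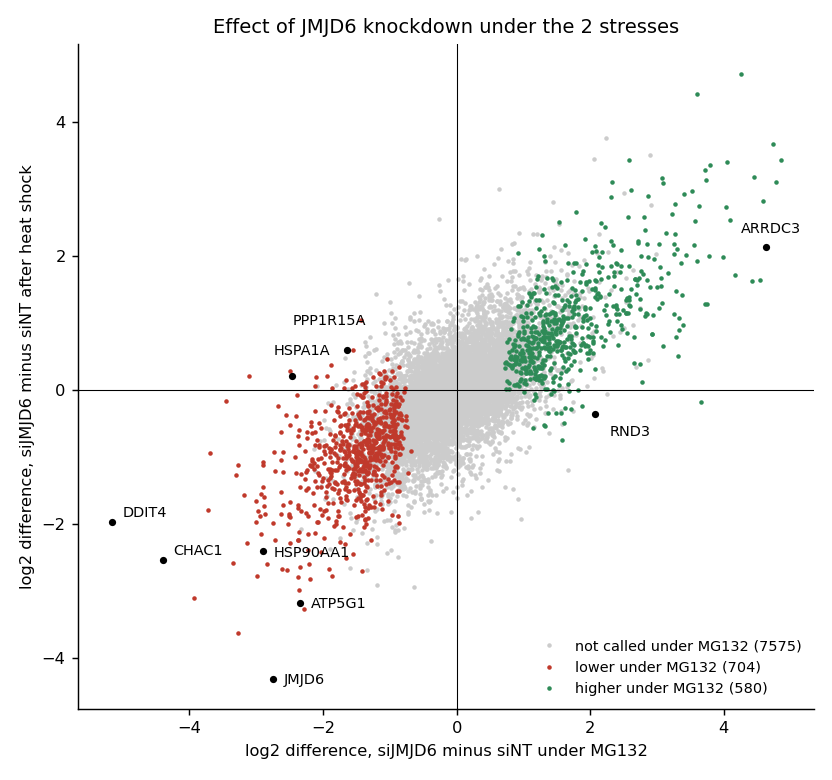
Log2 difference of siJMJD6 minus siNT under MG132 (horizontal) and after heat shock (vertical) for the 8859 genes fitted in both, coloured by their call under MG132 (704 lower, 580 higher). Most called genes lie in the lower left and upper right quadrants, while PPP1R15A, HSPA1A and RND3 lie outside them.

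Rises and falls differed in gene structure. GENCODE 29 gave 1 model for 8707 of the 9086 genes (95.8%). Exons were counted only in transcripts that GENCODE tags as basic. The largest number of exons of any such transcript of a gene had a median of 6 among rises, 11 among falls and 10 among genes not called. Genes of 1 or 2 exons made up 15.5% of rises, 2.01% of falls and 5.10% of all. Read the other way, 89 of the 444 genes of 1 or 2 exons rose and 14 fell (3.15%), whereas of the 1236 genes of more than 20 exons 3.07% rose and 9.87% fell. The share of rises went down with each exon class, through 11.9%, 5.73% and 3.70%. The order held when genes were split at the median level, with medians of 5.5 and 12 exons for rises and falls below it and 6 and 11 above it. Genes that rose spanned a median of 19968 bases and those that fell 33606. After heat shock 43.3% of genes of 1 or 2 exons rose and 12.9% fell, against 17.8% and 26.1% of those of more than 20 exons. Under MG132 the share of rises at 1 or 2 exons became 6.53% without siNT library 1, 11.5% without siJMJD6 library 1 and 13.1% without HSF1 KO library 2. At more than 20 exons it was 0.243%, 1.21% and 1.94% in the same 3 fits, so the order stayed. It was 1.78% without HSF1 KO library 1 and 1.29% without siNT library 2. The share of falls at more than 20 exons became 2.27% without siNT library 1, 4.45% without siNT library 2 and 5.91% or 5.99% without either HSF1 KO library. At 1 or 2 exons it was 1.58% without siNT library 1, 1.35% without siNT library 2, 2.03% without siJMJD6 library 1 and 4.95% without siJMJD6 library 2. These are properties of tagged 3' ends per gene, and splicing itself was not measured.

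**Figure D5:**
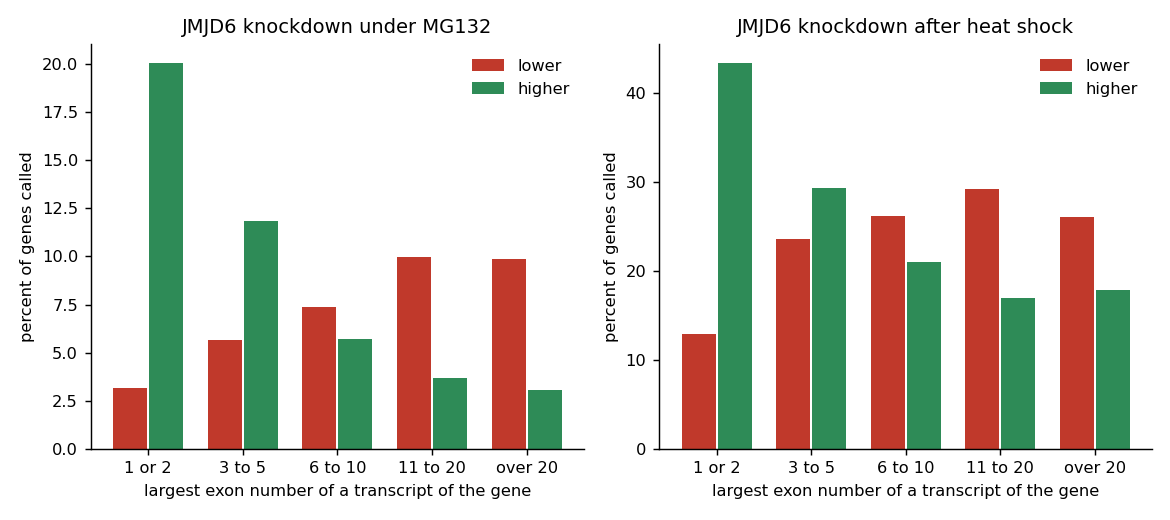
Percent of genes called lower or higher after JMJD6 knockdown, by the largest exon number of a GENCODE basic transcript, under MG132 (left) and after heat shock (right). Rises are most frequent at 1 or 2 exons (89 of 444 genes under MG132 and 43.3% after heat shock) and falls exceed rises above 5 exons in both experiments.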

How the data were processed

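Messenger RNA tags were prepared with QuantSeq FWD, per the labels' protocols, in 17 libraries, of which the 8 of the MG132 table were fitted here and 9 used for heat shock. The signal values are the authors' normalised counts, deposited as 1 table per experiment. Per the submitters' processing notes, FastQC 0.11.2, STAR 2.6.0, HTSeq and build hg38 were used. Scaling, annotation and strand setting: not given in the sources used here. Values are not whole, so limma 3.58.1 (R 4.3.3) was run on log2(value + 1), with a mean-variance trend, 1 spread per gene for all groups of a table, and Benjamini-Hochberg adjustment over all fitted genes (10 or more in 2 of 8, or 3 of 9, libraries). The fit was tested on simulated data. Named were JMJD6, HSP90AA1, DDIT4, CHAC1, the 12 largest rises and falls (groups not overlapping, mean of at least 50) and, from each of 45 lists, up to 4 called members by adjusted p, or 2 by p where none was called. Keratins, H3F3B, RND3, AUNIP, TSC22D3, RBM25, PGM5, HMGA2, RRAS and the genes said to be so were named otherwise. Some called genes are counted in their lists but not reported here by name. Members, lists and genes were chosen with earlier results of these data known. Alternatives were pseudocounts of 0.5 and 10, filters, scalings, a fit of 4 libraries, a replicate block and leaving out each library.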

Additional observations from a re-analysis of the deposited data

Results flagged for a closer look

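Some genes moved one way in every siJMJD6 library under MG132 and the opposite way in every siJMJD6 library after heat shock. The difference between the 2 effects was not tested, since the tables were scaled separately. Apart from PPP1R15A, EIF3A, MT1X and MT2A, the genes below were named after their values were seen. Their calls were not checked with a library left out. Log2 differences are siJMJD6 minus siNT.

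PPP1R15A had −1.65 under MG132 and 0.60 after heat shock. AUNIP, an interactor of Aurora A, had −1.43 and 1.05. TSC22D3, a glucocorticoid-induced leucine zipper, had −1.05 and 0.47, RBM25, a splicing regulator, −0.96 and 0.29, and EIF3A, a subunit of initiation factor 3, −0.86 and 0.34. In the other direction RND3, an atypical small GTPase, had 2.07 and −0.36, PGM5, a phosphoglucomutase-like protein of adhesions, 1.58 and −0.74, HMGA2, an architectural chromatin protein, 1.33 and −0.53, and RRAS, a small GTPase, 1.31 and −0.52. All 9 were called in both experiments, with adjusted p under MG132 from 0.00298 for PPP1R15A to 0.0411 for EIF3A, 0.0422 for HMGA2 and 0.0429 for TSC22D3. EIF3A kept its call in only 2 of the 8 fits that left out a library (adjusted p up to 0.211) and lost it with the 4 libraries alone and without a filter on low values. PPP1R15A kept it in all 8. The metallothioneins MT1X, with 0.84 and −1.48, and MT2A, with 0.52 and −0.76, were called only after heat shock (adjusted p of 0.228 and 0.174 under MG132).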

How the results depend on the processing

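The number of genes that passed changed with the library left out. Fits without a DMSO or HSF1 KO library, which leave each difference unchanged, also gave fewer calls. The part of a single library and lower precision with fewer libraries were therefore not separated. Under MG132, leaving out 1 library gave 188 to 745 falls and 162 to 521 rises, lowest without siNT library 1. Without a filter on low values 312 genes fell and 262 rose. With only the 4 libraries compared it was 297 and 390, so rises went from 46.0% to 56.8% of calls. Without siNT library 2 they were 57.7%. A replicate block gave 1039 falls and 912 rises. Same-numbered siNT and siJMJD6 libraries had a correlation of 0.0539 in their deviations under MG132 and of 0.00452 to 0.0932 after heat shock. Against the DMSO libraries it was 0.393 for siNT and 0.339 for siJMJD6 under MG132. The sample titles share this number across the DMSO and MG132 groups of siRNA cells, as a tag whose meaning is not given. Not every pair passed 0.1, so the main fit did not pair the libraries. The cutoff of 0.1 was a choice, and the replicate block gives the MG132 counts with the tag used. The other pseudocounts, filter and scalings kept both counts within 1.5 times. After heat shock the counts stayed within 1.5 times under the alternatives run. Of 148 named genes called under MG132, 67 kept their call without each library in turn, 72 lost it without siNT library 1, 56 without a filter, 45 with the 4 libraries alone and 0 under the replicate block. No named gene reversed. Depth in reads is unknown, so no detection limit could be given for low genes, and 2 libraries per group limit the precision.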
